A study of Mus musculus with 8 samples.

Results

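The 7 genes Stat3, Stat5a, Stat5b, Socs1, Socs2, Socs3 and Cish were followed through open chromatin measured by ATAC-seq, which reads accessible DNA through insertions of the Tn5 transposase. Their regions are those of 61196 counted genomic regions (mm10) whose nearest RefSeq protein-coding gene, within 50 kb, is 1 of the 7. This gave 30 regions, 4 for Stat3, 1 for Stat5a, 7 for Stat5b, 2 for Socs1, 5 for Socs2, 8 for Socs3 and 3 for Cish, and none lay at equal distance from another gene. Which gene a linked region acts on is not known from distance. A region's level in a bulk sample also does not tell a larger share of open cells from wider opening in each cell. All samples are mouse bone marrow progenitor cells, sorted at 5000 cells per tube, in 4 groups of 2 libraries, labelled cMoP, GMP-MoP, proNeu1 and proNeu2. No group carries a stated mutation or treatment. The replicates are labelled as biological, but strain, age, sort gates and the animals behind each library are not stated in the labels, so p-values measure only the spread between these libraries. The series title names a pathway that generates GMP-MoP cells from proNeu1, so each region is read by where GMP-MoP stands between cMoP, a monocyte progenitor, and the proNeu groups, early neutrophil progenitors.

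STAT proteins are transcription factors that wait in the cytoplasm until Janus kinases, bound to cytokine receptors, phosphorylate them. They then pair, enter the nucleus and bind DNA sites of the form TTCNNNGAA. STAT3 carries signals of G-CSF and interleukin 6, the paralogs STAT5A and STAT5B those of GM-CSF and interleukin 3, and the SOCS proteins and CIS (the product of Cish) are induced by STATs and damp the same receptors as feedback inhibitors. In the marrow, G-CSF with STAT3 drives neutrophil production and SOCS3 restrains it.

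Totals over all regions ran from 1388525 to 1907810 counts per library, with 11 to 18 counts in the median region. Levels below are CPM, the count relative to the TMM-scaled library size, and the median region had 7.30 to 9.50 CPM in the 8 libraries. The labels were checked against marker genes. Summed over 46 regions of 6 monocyte progenitor genes, levels were 605 to 673 CPM in cMoP, 533 to 546 in GMP-MoP and 346 to 421 in the proNeu libraries, and over 32 regions of 10 neutrophil progenitor genes 446 to 467, 542 to 567 and 1035 to 1239. Over 12 regions, B cell markers summed to 47.8 to 53.8 CPM in cMoP, 65.8 to 71.9 in GMP-MoP and 55.9 to 75.1 in the proNeu libraries, and over 8 regions those of mast cells and basophils to 28.5 to 35.9, 39.1 to 42.1 and 27.4 to 39.2. Markers of T and NK cells ran from 130 to 192 CPM over 10 regions, lowest in GMP-MoP and highest in proNeu2, and those of erythroid cells and megakaryocytes from 71.4 to 110 over 7. Cd79a, Cd3e and Cd3g, which define B and T cells, had no linked region, and the part of other cells in the results was not tested. The proNeu2 libraries were nearly as alike as sampling noise allows. Their chi-square per degree of freedom was 1.05 over all regions (p = 1.41e-17) and 1.01 over regions of at least 80 counts (p = 0.182), against 1.30 to 1.38 over such regions in the other groups. They were counted as 2 samples, and results that change when they are summed to 1 are named.

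Start-site windows from RefSeq were at hand for 6 of the 7 genes, all but Socs2 (GRCm38.p6, the mm10 assembly), and the windows below run from 250 bases before the first transcribed base to 30 bases from it, 5′ to 3′ on the gene's strand. They are shown because each lies wholly inside a counted region at the start of its gene and because they differ in the sites they hold. Capitals mark matches to TTCNNNGAA, the STAT consensus, or to GAAANNGAAA, a core of interferon-response elements, sought on both strands.
Stat3, chr11:100939511-100939790, minus strand: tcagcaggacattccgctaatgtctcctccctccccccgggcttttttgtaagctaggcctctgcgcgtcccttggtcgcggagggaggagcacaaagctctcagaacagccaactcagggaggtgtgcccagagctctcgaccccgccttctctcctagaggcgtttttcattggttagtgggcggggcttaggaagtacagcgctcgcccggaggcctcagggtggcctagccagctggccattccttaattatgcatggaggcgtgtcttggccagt
Socs3, chr11:117969337-117969616, minus strand: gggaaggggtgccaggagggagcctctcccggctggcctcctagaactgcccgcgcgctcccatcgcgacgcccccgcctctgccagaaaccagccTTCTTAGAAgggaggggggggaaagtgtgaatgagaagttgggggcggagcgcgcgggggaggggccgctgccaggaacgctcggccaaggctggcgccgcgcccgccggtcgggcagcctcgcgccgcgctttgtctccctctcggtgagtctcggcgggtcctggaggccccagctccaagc
Cish, chr9:107296409-107296688, plus strand: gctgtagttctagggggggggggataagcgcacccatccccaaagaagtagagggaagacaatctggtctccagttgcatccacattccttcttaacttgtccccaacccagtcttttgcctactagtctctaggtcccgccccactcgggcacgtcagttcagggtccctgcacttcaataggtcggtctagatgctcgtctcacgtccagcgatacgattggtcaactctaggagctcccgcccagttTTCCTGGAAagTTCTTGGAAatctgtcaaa
Socs1, chr16:10785507-10785786, minus strand: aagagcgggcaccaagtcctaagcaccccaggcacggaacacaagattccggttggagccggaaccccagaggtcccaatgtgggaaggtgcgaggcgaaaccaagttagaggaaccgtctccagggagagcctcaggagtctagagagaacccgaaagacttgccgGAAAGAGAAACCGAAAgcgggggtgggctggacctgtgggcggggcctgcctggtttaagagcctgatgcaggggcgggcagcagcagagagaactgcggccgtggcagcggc
Cish held 2 matches to TTCNNNGAA, TTCCTGGAA at bases 1 to 9 and TTCTTGGAA at bases 12 to 20, counted from the first transcribed base. Socs3 held 1, TTCTTAGAA, at bases -154 to -146. Socs1 held 2 overlapping matches to GAAANNGAAA, GAAAGAGAAA at -83 to -74 and GAAACCGAAA at -77 to -68. The Stat3 window and the windows of Stat5a and Stat5b, with 2 listed starts each, held neither motif. Among 32851 windows of the same 280 bases, 7.83% held TTCNNNGAA and 3.28% held GAAANNGAAA. A match describes letters and not a bound site.

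Stat3, the STAT of G-CSF signalling, had the most accessible start-site region of the 6 genes with a listed start, and it was more open in both proNeu groups than in cMoP or GMP-MoP. This region (chr11:100938965-100940244) had 90.9 and 76.01 CPM in replicates 1 and 2 of cMoP, 107.5 and 73.7 in GMP-MoP, 153 and 158 in proNeu1 and 175 and 165 in proNeu2. The proNeu libraries were all above the others, and those of cMoP and GMP-MoP overlapped. The log2 fold change, from edgeR's quasi-likelihood test with Benjamini-Hochberg adjustment over 47506 regions as for all adjusted p-values below unless DESeq2 is named, was 0.90 in proNeu1 against cMoP (SE 0.138, adjusted p = 9.43e-09) and 1.03 in proNeu2 against cMoP (SE 0.135, adjusted p = 9.98e-12). GMP-MoP was lower than proNeu1 by log2 -0.80 (SE 0.141, adjusted p = 2.74e-06) and lower than proNeu2 by log2 -0.93 (SE 0.138, adjusted p = 5.42e-09). Against cMoP its log2 difference was 0.10, with a 95% interval of -0.20 to 0.39. All 4 calls held in each of the 16 alternatives run for them, DESeq2 among them. Loess offsets across abundance lowered the log2 changes to 0.48 and 0.58 in proNeu1 and proNeu2 against cMoP, and to -0.46 and -0.56 in GMP-MoP against proNeu1 and proNeu2. Single GMP-MoP libraries also moved the last 2 sizes. They were -1.10 and -1.24 without GMP-MoP replicate 1, and -0.54 and -0.68 without replicate 2.

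A second Stat3 region changed more, and there GMP-MoP stood between the groups. It lies in the gene body, 22.9 kb downstream of the start (chr11:100916196-100917134); the tables used here do not separate exons from introns. It had 5.38 and 4.22 CPM in cMoP, 11.6 and 11.9 in GMP-MoP, 22.7 and 31.9 in proNeu1 and 22.5 and 23.2 in proNeu2. The 3 levels did not overlap. Its accessibility was 5.63-fold higher in proNeu1 than in cMoP (log2 2.49, SE 0.347, adjusted p = 2.31e-10) and 4.71-fold higher in proNeu2 than in cMoP (adjusted p = 1.46e-08), calls kept in all 16 alternatives. GMP-MoP was lower than proNeu1 (log2 -1.21, SE 0.299, adjusted p = 0.000987) and than proNeu2 (log2 -0.95, SE 0.305, adjusted p = 0.00794). It was 2.43-fold higher than cMoP (log2 1.28, SE 0.413, adjusted p = 0.0417), the only call of the 26 tested regions in that comparison. It was lost when cMoP replicate 1 (adjusted p = 0.108), cMoP replicate 2 (0.256), GMP-MoP replicate 1 (0.139) or GMP-MoP replicate 2 (0.182) was left out and with DESeq2 (0.683), in a range of 0.0341 to 0.683. The call against proNeu1 ended without proNeu1 replicate 2 (0.0786) and with DESeq2 (0.0983; range from 0.000679), and that against proNeu2 without GMP-MoP replicate 2 (0.0581) and with DESeq2 (0.129; range from 0.00559).

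Another Stat3 region, 45.8 kb downstream of the start in the gene body, was lowest in GMP-MoP, with 6.54 and 7.94 CPM against 14.0 and 10.6 in cMoP, 14.9 and 11.5 in proNeu1 and 12.2 and 17.3 in proNeu2. Only the difference from proNeu2 passed the test (log2 -0.99, SE 0.379, adjusted p = 0.0278). It ended without proNeu2 replicate 2 (0.236), GMP-MoP replicate 1 (0.104) or GMP-MoP replicate 2 (0.0822), with total counts (0.0701) and with DESeq2 (0.196), in a range from 0.0134. The region 51.0 kb downstream had at most 4 counts in any library and was not tested.

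**Figure D1:**
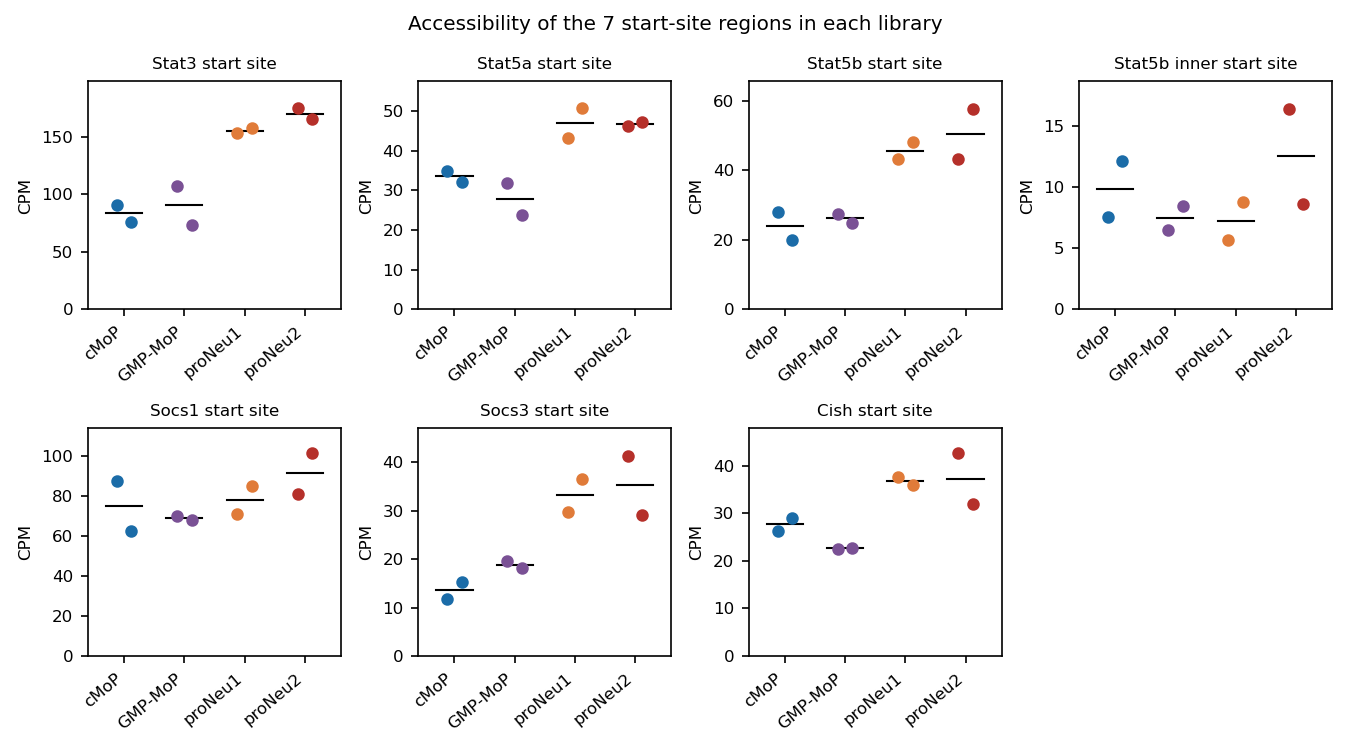
CPM of the 7 regions that cover a listed start site of Stat3, Stat5a, Stat5b, Socs1, Socs3 or Cish, by group; each point is 1 library, each bar the mean of 2, and every panel starts at 0 with its own scale. At Stat3 the proNeu libraries sit between 153 and 175 CPM, above the 73.7 to 107.5 of cMoP and GMP-MoP, and at Socs1 and the inner start of Stat5b the libraries of cMoP and the proNeu groups overlap.

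Stat5a and Stat5b, neighbours on chromosome 11 beside Stat3, were also more open at their main start-site regions in both proNeu groups than in cMoP and GMP-MoP, at smaller size against cMoP for Stat5a. The Stat5b region (chr11:100849998-100851121) had 27.95 and 20.1 CPM in cMoP, 27.6 and 24.9 in GMP-MoP, 43.2 and 48.2 in proNeu1 and 43.2 and 57.8 in proNeu2. It rose by log2 0.93 in proNeu1 (SE 0.218, adjusted p = 0.000169) and 1.06 in proNeu2 (SE 0.210, adjusted p = 4.73e-06) against cMoP, in all 16 alternatives. GMP-MoP was lower than proNeu2 (log2 -0.94, SE 0.215, adjusted p = 0.000157), also in all 16, and lower than proNeu1 (log2 -0.81, SE 0.222, adjusted p = 0.00350). The last call ended without proNeu1 replicate 2 (0.0549) or GMP-MoP replicate 2 (0.0731) and with DESeq2 (0.133; range from 0.00221). The cMoP and GMP-MoP libraries overlapped (log2 0.12, 95% interval -0.35 to 0.60).

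The Stat5a region (chr11:100859846-100861032) had 34.9 and 32.2 CPM in cMoP, 31.95 and 23.8 in GMP-MoP, 43.2 and 50.9 in proNeu1 and 46.2 and 47.1 in proNeu2. The proNeu libraries lay above all others. The level in GMP-MoP was below proNeu1 (log2 -0.78, SE 0.218, adjusted p = 0.00409) and proNeu2 (log2 -0.76, SE 0.215, adjusted p = 0.00233). Without GMP-MoP replicate 2 both ended (0.170 and 0.112), as they did with DESeq2 (0.132 and 0.0673), and the first also ended without proNeu1 replicate 2 (0.0870). Their lowest values over the alternatives were 0.00243 and 0.00131. The rise over cMoP was log2 0.49 in proNeu1 (adjusted p = 0.0400) and 0.47 in proNeu2 (adjusted p = 0.0353). It depended on the scaling: with loess offsets the log2 changes were 0.25 and 0.21 and the adjusted p-values 0.336 and 0.390, with total counts the adjusted p-values were 0.106 and 0.123, and with DESeq2 size factors in edgeR the first was 0.0682. It also ended without cMoP replicate 1 (0.0528, proNeu1 only), cMoP replicate 2 (0.141 and 0.116), proNeu1 replicate 2 (0.226), proNeu2 replicate 1 (0.0752) or proNeu2 replicate 2 (0.0807), and with DESeq2 (0.3 and 0.234). The lowest values over the alternatives were 0.0201 and 0.0124.

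The other Stat5b regions did not differ past the test in any of the 6 comparisons. The region at the inner start (chr11:100822259-100823000) had 7.53 and 12.1 CPM in cMoP, 6.54 and 8.50 in GMP-MoP, 5.67 and 8.82 in proNeu1 and 16.4 and 8.63 in proNeu2. The 4 tested regions elsewhere in the gene body had group means of 4.01 to 13.96 CPM. A further region, 21.7 kb downstream of the first start, had 1 to 9 counts per library and was not tested.

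Among the inhibitors, Socs3 held regions that moved in opposite directions around the same gene. SOCS3 blocks the G-CSF receptor and the interleukin 6 receptor chain gp130. Its start-site region (chr11:117968721-117970383) was more open in the proNeu groups, with 11.8 and 15.3 CPM in cMoP, 19.6 and 18.1 in GMP-MoP, 29.8 and 36.6 in proNeu1 and 41.4 and 29.2 in proNeu2. GMP-MoP lay between, overlapping neither side. It was 2.44-fold higher in proNeu1 than in cMoP (log2 1.29, SE 0.263, adjusted p = 1.49e-05) and 2.60-fold higher in proNeu2 than in cMoP (log2 1.38, SE 0.255, adjusted p = 9.82e-07), in all 16 alternatives. The GMP-MoP level was below proNeu1 (log2 -0.82, SE 0.256, adjusted p = 0.0106) and proNeu2 (log2 -0.91, SE 0.248, adjusted p = 0.00156), and did not differ past the test from cMoP (log2 0.47, 95% interval -0.11 to 1.04, adjusted p = 0.418). The call against proNeu1 ended without proNeu1 replicate 2 (0.151), without GMP-MoP replicate 2 (0.118) and with DESeq2 (0.212; range from 0.00847), and that against proNeu2 without proNeu2 replicate 1 (0.127) and with DESeq2 (0.0749; range from 0.000907).

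The reverse pattern stood 22.5 kb downstream of the Socs3 start (chr11:117946418-117947408). This region had 29.03 and 17.4 CPM in cMoP and 18.2 and 17.01 in GMP-MoP, against 3.54 and 11.5 in proNeu1 and 3.04 and 8.63 in proNeu2. All cMoP and GMP-MoP libraries were above all proNeu libraries. It was 3.02-fold lower in proNeu1 than in cMoP (log2 -1.60, SE 0.343, adjusted p = 3.86e-05) and 4.01-fold lower in proNeu2 than in cMoP (log2 -2.00, SE 0.357, adjusted p = 3.94e-07), in all 16 alternatives. GMP-MoP exceeded proNeu1 by log2 1.19 (SE 0.373, adjusted p = 0.0109) and proNeu2 by log2 1.60 (SE 0.389, adjusted p = 0.000390), while against cMoP its log2 difference was -0.40 (95% interval -0.95 to 0.14). The first of these calls ended without proNeu1 replicate 1 (0.346), without GMP-MoP replicate 2 (0.0553) and with DESeq2 (0.207; range from 0.00185), and the second without proNeu2 replicate 1 (0.0873; range from 0.000125). Single proNeu libraries moved these sizes. The log2 difference from proNeu1 was 0.60 without proNeu1 replicate 1 and 2.28 without replicate 2, and that from proNeu2 was 1.00 without proNeu2 replicate 1 and 2.47 without replicate 2. In proNeu1 against cMoP the change was -0.96 without proNeu1 replicate 1 and -2.65 without replicate 2.

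A region 9.24 kb downstream (chr11:117959624-117960618) was also lower outside cMoP. It had 21.5 and 22.2 CPM in cMoP, 15.97 and 10.8 in GMP-MoP, 11.3 and 10.2 in proNeu1 and 12.2 and 11.95 in proNeu2. Here the GMP-MoP libraries overlapped those of proNeu1 and proNeu2 and lay below cMoP. The fall was called in proNeu1 (log2 -1.02, SE 0.313, adjusted p = 0.00462) and proNeu2 (log2 -0.85, SE 0.298, adjusted p = 0.0107) but not in GMP-MoP (log2 -0.74, 95% interval -1.31 to -0.16, adjusted p = 0.126). The proNeu1 call ended without proNeu1 replicate 2 (0.0660) and with DESeq2 (0.0892; range from 0.00192). The proNeu2 call ended without cMoP replicate 2 (0.0632), proNeu2 replicate 1 (0.0842) or proNeu2 replicate 2 (0.0836) and with DESeq2 (0.129; range from 0.00351).

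Regions 15.1 kb downstream (9.68 and 12.7 CPM in cMoP, 17.6 and 21.9 in proNeu2) and upstream at -6.93 kb (6.99 and 5.28, 12.2 and 11.95) were higher in proNeu2 than in cMoP. In proNeu1 the first had 9.92 and 22.4 CPM and the second 4.96 and 5.43, and neither passed against cMoP. In GMP-MoP the first had 15.25 and 10.8 and the second 5.81 and 6.80. The log2 changes of these regions in proNeu2 against cMoP were 0.81 (SE 0.310, adjusted p = 0.0201) and 0.97 (SE 0.398, adjusted p = 0.0316). The first ended without cMoP replicate 1 (0.125) or proNeu2 replicate 2 (0.126), with total counts (0.0563) and with DESeq2 (0.211; range from 0.00732). The second ended without cMoP replicate 2 (0.164), proNeu2 replicate 1 (0.0931) or proNeu2 replicate 2 (0.0706), with total counts (0.0676) and with DESeq2 (0.244; range from 0.00402). The regions 5.74 kb downstream and upstream at -5.55 kb passed in no comparison, and the outermost, with 5 to 12 counts per library, was not tested.

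**Figure D2:**
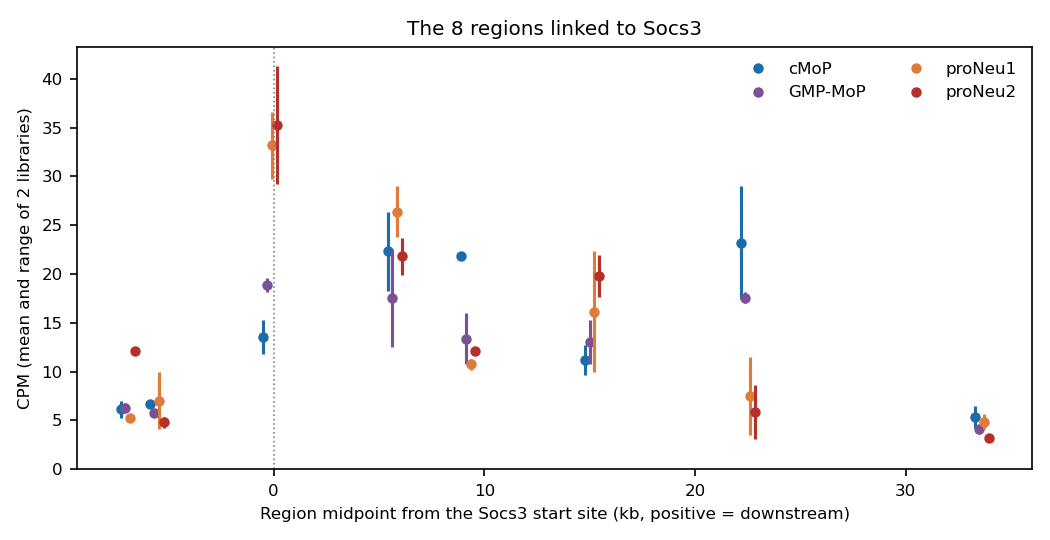
CPM of the 8 regions linked to Socs3 against the distance of their midpoints from the start site in kb (dotted line, downstream to the right); points are group means of 2 libraries, shifted sideways for sight, and bars run from the lower to the higher library. The start-site region is highest in the proNeu groups and the region 22.5 kb downstream is highest in cMoP and GMP-MoP.

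Socs1, an inhibitor of interferon signalling whose start window holds the GAAANNGAAA matches, passed the test in 1 comparison only. Its start-site region (chr16:10784639-10786168) had 87.6 and 62.3 CPM in cMoP, 69.7 and 68.03 in GMP-MoP, 70.8 and 84.8 in proNeu1 and 80.9 and 101.6 in proNeu2. The cMoP libraries spanned those of GMP-MoP and proNeu1. In proNeu1 against cMoP the log2 difference was 0.06, with a 95% interval of -0.25 to 0.37. GMP-MoP was lower than proNeu2 (log2 -0.40, SE 0.159, adjusted p = 0.0338). The difference did not pass without proNeu2 replicate 2 (0.352) or GMP-MoP replicate 2 (0.111), with total counts (0.182), loess offsets (0.835), only the 2 groups in the fit (0.0894) and DESeq2 (0.218), in a range from 0.0187. The log2 difference was -0.26 without proNeu2 replicate 2, -0.25 with total counts and -0.04 with loess offsets. The other Socs1 region, 16.0 kb downstream, had group means of 13.5 to 14.7 CPM and passed in no comparison.

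Socs2, an inhibitor of growth hormone signalling, differed outside the gene and not at it. The region that overlaps the gene (chr10:95416426-95418389) had 23.7 and 26.9 CPM in cMoP, 24.7 and 17.6 in GMP-MoP, 19.1 and 23.7 in proNeu1 and 18.2 and 21.9 in proNeu2. These libraries overlapped in 5 of the 6 comparisons, all but proNeu2 against cMoP, and none passed the test. A pair of regions 15.5 kb (chr10:95367564-95368371) and 11.5 kb (chr10:95371508-95372445) outside the gene were nearly closed in the proNeu groups. Raw counts in replicates 1 and 2 of the first were 22 and 13 in cMoP, 7 and 12 in GMP-MoP, 1 and 1 in proNeu1 and 0 and 1 in proNeu2. Those of the second were 17 and 23, 3 and 12, 1 and 1, and 0 and 4. Both regions passed the filter on low counts only through cMoP, the group where they are highest. Since some groups held 1 to 3 counts, ratios scaled for library size are given with 95% exact counting intervals, which cover counting error only, as PCR reads are not independent molecules.

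At the region 15.5 kb away cMoP exceeded proNeu1 by a ratio of 13.5 (3.46 to 115; adjusted p = 3.02e-05) and proNeu2 by 29.4 (4.94 to 1190; adjusted p = 1.51e-06), and at the region 11.5 kb away it exceeded proNeu1 by 15.4 (3.99 to 131; adjusted p = 5.79e-06). At the latter cMoP was 7.96-fold above proNeu2 (log2 of proNeu2 against cMoP -2.99, SE 0.634, adjusted p = 1.96e-05). These 4 calls held in all 16 alternatives, though the last log2 change was -1.92 without proNeu2 replicate 1 and -1.95 with loess offsets. GMP-MoP stood nearer to cMoP at the region 15.5 kb away, where it exceeded proNeu1 by a ratio of 8.73 (2.11 to 77.3; adjusted p = 0.00547) and proNeu2 by 19.1 (3.03 to 792; adjusted p = 0.000482). The first ended without proNeu1 replicate 2 (0.0511), without GMP-MoP replicate 2 (0.0978) and with DESeq2 (0.134; range from 0.00386), and the second with DESeq2 (0.0563; range from 0.000294). In a fit of only the 2 groups compared this region did not pass the filter on low counts in either comparison with GMP-MoP, so it entered these tests through its level in cMoP.

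At the region 11.5 kb away GMP-MoP exceeded proNeu1 by a ratio of 6.89 (1.60 to 62.1; adjusted p = 0.0220), and it was higher than proNeu2 by log2 1.84 (SE 0.779, adjusted p = 0.0482), although the lower GMP-MoP library, with 3 counts, overlapped proNeu2. The first ended without proNeu1 replicate 1 (0.0914), proNeu1 replicate 2 (0.108) or GMP-MoP replicate 2 (0.511), with loess offsets (0.0856) and with DESeq2 (0.220; range from 0.00656). The second ended without cMoP replicate 1 (0.0647), cMoP replicate 2 (0.0765), proNeu2 replicate 1 (0.491) or GMP-MoP replicate 2 (0.699), with the replicate number as a block (0.0596), with the proNeu2 libraries summed to 1 sample (0.0595), without the filter (0.0519), with loess offsets (0.246) and with DESeq2 (0.251; range from 0.00737). Its log2 difference was 0.73 without GMP-MoP replicate 2, 0.80 without proNeu2 replicate 1 and 1.19 under loess scaling, and without proNeu2 replicate 2 the remaining proNeu2 library had 0 counts. This region, too, did not pass the filter in a fit of only the 2 groups compared. The region 25.6 kb away had 5.81 to 11.5 CPM per library and passed in no comparison, and that 22.1 kb away, with 2 to 11 counts, was not tested.

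Cish, a classic STAT5 target gene and the only gene whose window held 2 TTCNNNGAA matches, changed most just past its end. The region 25 bp beyond the gene (chr9:107302809-107303708) had 1.61 and 0.528 CPM in cMoP, from 3 and 1 counts, 3.63 and 3.40 in GMP-MoP, 14.9 and 8.82 in proNeu1 and 23.7 and 13.3 in proNeu2. No cMoP or GMP-MoP library reached the proNeu libraries, and GMP-MoP was above cMoP. The GMP-MoP libraries held 5 and 6 counts. The region thus passed the filter on low counts only through the proNeu groups, where it is high. The rise over cMoP was log2 3.38 in proNeu1 (SE 0.597, adjusted p = 5.54e-07) and 4.04 in proNeu2 (SE 0.527, adjusted p = 7.81e-12). GMP-MoP was lower than proNeu2 by log2 -2.39 (SE 0.432, adjusted p = 1.61e-06). These 3 calls held in all 16 alternatives. It was also lower than proNeu1 (log2 -1.73, SE 0.485, adjusted p = 0.00413), a call that ended without proNeu1 replicate 1 (0.134), without GMP-MoP replicate 2 (0.0681) and with DESeq2 (0.136; range from 0.00194). Against cMoP the GMP-MoP difference did not pass (log2 1.65, 95% interval 0.11 to 3.19, adjusted p = 0.229).

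At the Cish start-site region (chr9:107296097-107297245) GMP-MoP was the lowest group, with 22.5 and 22.7 CPM against 26.3 and 29.03 in cMoP, 37.5 and 35.95 in proNeu1 and 42.6 and 31.9 in proNeu2. It was lower than proNeu1 (log2 -0.70, SE 0.239, adjusted p = 0.0211) and proNeu2 (log2 -0.72, SE 0.234, adjusted p = 0.00846), and its difference from cMoP did not pass (log2 -0.29, 95% interval -0.77 to 0.18). The first call ended without proNeu1 replicate 1 (0.0973), proNeu1 replicate 2 (0.0709), GMP-MoP replicate 1 (0.0567) or GMP-MoP replicate 2 (0.125), with total counts (0.0674), loess offsets (0.0975) and DESeq2 (0.242; range from 0.0184). The second ended without proNeu2 replicate 1 (0.213) or GMP-MoP replicate 2 (0.0583), with loess offsets (0.0567) and with DESeq2 (0.121; range from 0.00569). A region 9818 bp beyond the gene had group means of 17.2 to 25.4 CPM and passed in no comparison.

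**Figure D3:**
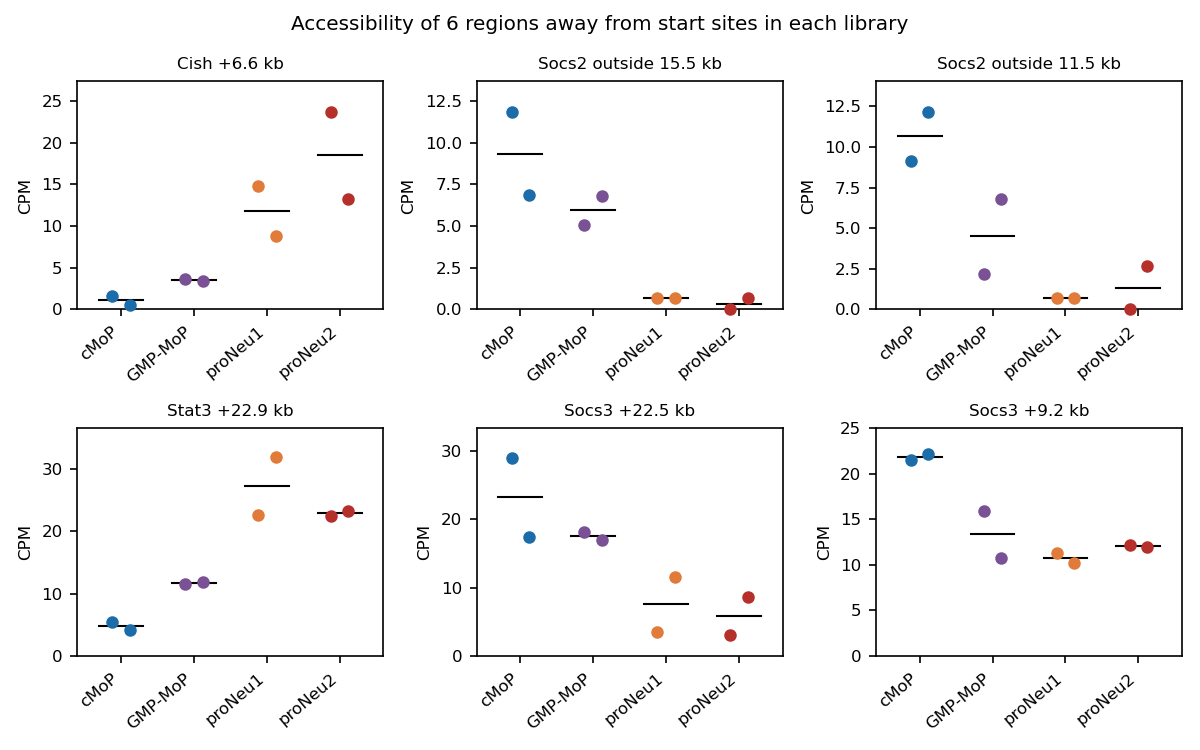
CPM, by group, of the 6 regions away from start sites that were called in proNeu1 against cMoP, titled by distance from the first start (for Socs2, from the gene); each point is 1 library, each bar the mean of 2, and every panel starts at 0 with its own scale. The regions in the body of Stat3 and past the end of Cish are lowest in cMoP and highest in the proNeu groups, with GMP-MoP at 11.6 and 11.9 and at 3.63 and 3.40 CPM between them; those of Socs2 and that 22.5 kb downstream of Socs3 are highest in cMoP.

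Per kb of region, a scale that allows levels of different genes to be set side by side, the start-site regions in cMoP had 65.2 CPM per kb at Stat3, 48.99 at Socs1, 28.3 at Stat5a, 24.1 at Cish, 21.4 at the first start of Stat5b, 13.2 at its inner start and 8.16 at Socs3. In proNeu2 the same regions had 133, 59.6, 39.3, 32.4, 44.9, 16.9 and 21.2. On this scale Socs3 was lowest in cMoP and was above the inner start of Stat5b in proNeu2. In CPM not divided by width, Socs3 in cMoP had 13.6, above the 9.83 of the inner start of Stat5b. These orders are descriptions, with no test between genes.

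Counted over the 26 tested regions of the 7 genes, 6 gained and 4 lost accessibility in proNeu1 against cMoP, a comparison in which 20.6% of the whole table gained and 21.9% lost. In proNeu2 against cMoP 8 were higher and 4 lower (25.2% and 27.4% of all regions). In GMP-MoP against proNeu1 3 were higher and 7 lower (11.6% and 12.5%), and in GMP-MoP against proNeu2 3 were higher and 9 lower (39.2% of all regions called, 19.2% lower). In GMP-MoP against cMoP 1 was higher and 0 lower (1.98% and 3.47%), with 4 at an unadjusted p under 0.05 and 0 by DESeq2. The edgeR test called 0 of the 26 in proNeu2 against proNeu1, where 0.0758% of all regions were called, with 1 at an unadjusted p under 0.05 and 0 by DESeq2. Median log2 changes of the 26 were 0.22, 0.32, -0.27, -0.47, -0.13 and 0.05 in the order of these comparisons, beside 0.02, -0.02, 0.01, 0.04, -0.02 and -0.01 over all tested regions. In all 15 regions were called in at least 1 comparison and 11 in none. The comparisons share libraries, so their counts are not independent. The counts include the Socs2 regions 15.5 and 11.5 kb away, which passed the filter only through cMoP. They also include the region past the end of Cish, which passed only through the proNeu groups. In fits of only the 2 groups compared, GMP-MoP had 1 higher and 7 lower of 22 against proNeu1 (23.5% of all regions called). Against proNeu2 it had 1 higher and 8 lower of 23 (40.9%).

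Leaving out 1 library at a time gave 8 to 11 calls in proNeu1 and 9 to 14 in proNeu2 against cMoP, and DESeq2 gave 8 in each. Calls between GMP-MoP and proNeu1 fell from 10 to 2 without GMP-MoP replicate 2, to 3 without proNeu1 replicate 2, to 6 without proNeu1 replicate 1 and to 1 with DESeq2. Over all regions the share called fell from 24.1% to 9.17%, 12.9%, 14.0% and 4.49% in the same settings. Calls between GMP-MoP and proNeu2 fell from 12 to 6 without GMP-MoP replicate 2 and to 4 with DESeq2, where the share of all regions fell from 39.2% to 21.0% and 15.0%. The single call in GMP-MoP against cMoP was lost without any of the 4 libraries compared.

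**Figure D4:**
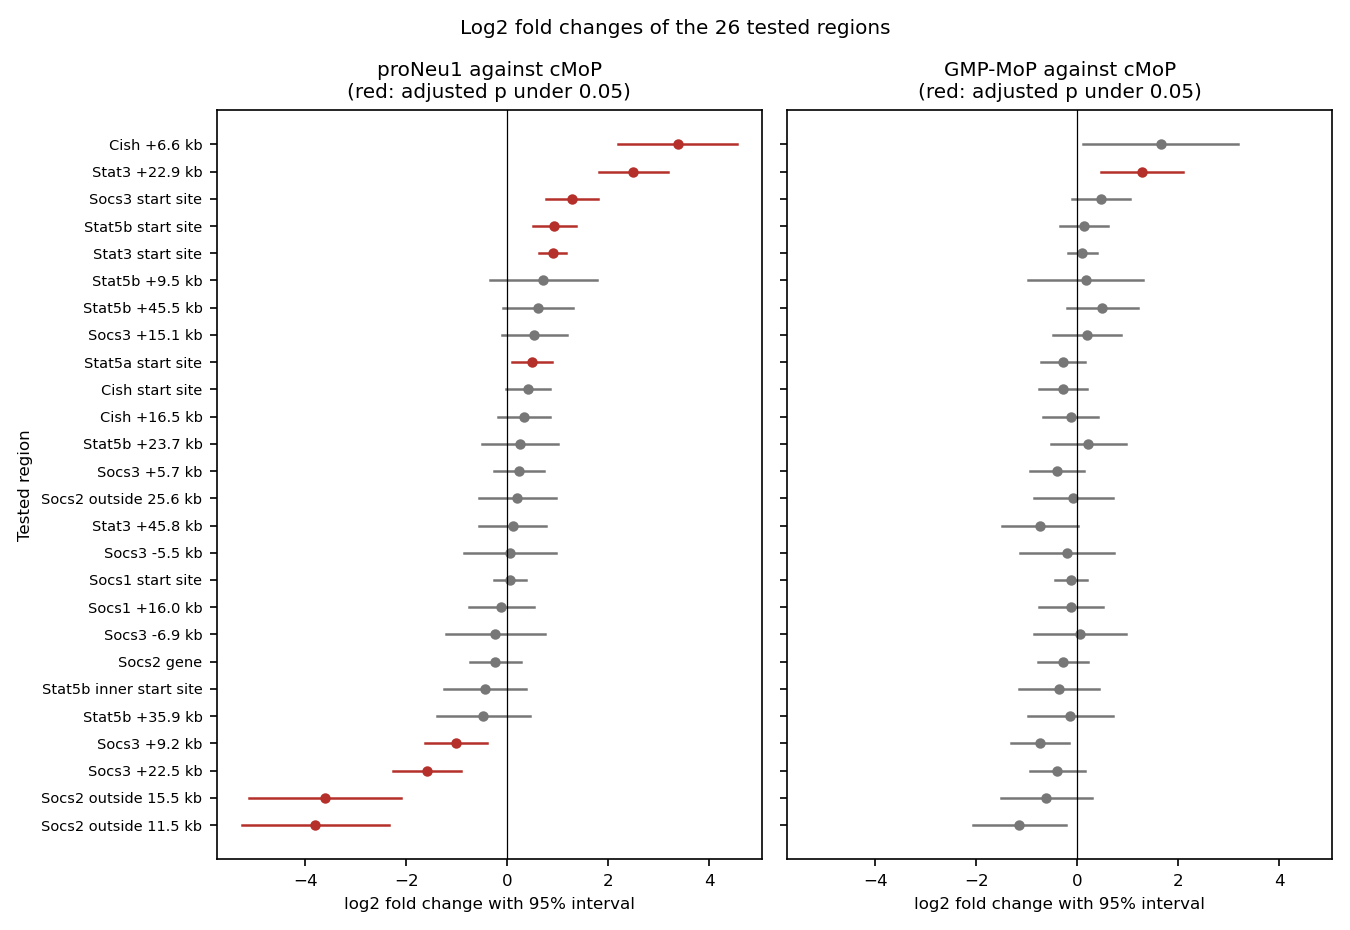
Log2 fold changes with 95% intervals of the 26 tested regions in proNeu1 against cMoP (left) and GMP-MoP against cMoP (right), in the same order, named by gene and distance of the midpoint from the first start (for Socs2, distance from the gene); red marks an adjusted p under 0.05. On the left 6 regions are red to the right of 0 and 4 to its left, and on the right only the Stat3 region at 22.9 kb is red.

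With TMM scaling, start-site regions as a class were called higher more often than lower in the proNeu groups against cMoP. The calls at these 7 are therefore read against that class. Among 8702 tested regions that cover a start of their gene, 36.1% rose and 6.79% fell in proNeu1 against cMoP, and 43.4% and 11.9% in proNeu2. Of the 7 start-site regions here, 4 were higher and 0 lower in each, those of Stat3, Stat5a, Socs3 and the first start of Stat5b. In GMP-MoP against proNeu1 5 of 7 were lower and 0 higher, beside 26.5% and 3.47% of the class, and against proNeu2 6 of 7 were lower and 0 higher, beside 37.3% and 9.29%. Against cMoP 0 of 7 were called by edgeR and 0 by DESeq2, with 0 at an unadjusted p under 0.05, beside 1.39% of the class. The share of all counts that fell in start-site regions was 37.9 and 35.4% in cMoP, 39.6 and 37.2% in GMP-MoP, 43.6 and 43.1% in proNeu1 and 44.0 and 43.7% in proNeu2. This share and the summed CPM of the 7 regions were both higher in every proNeu library than in any cMoP or GMP-MoP library. Between cMoP and GMP-MoP the sums were alike, with 287 and 247 CPM in cMoP and 285 and 240 in GMP-MoP. The part of the share in these levels was not tested.

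The size of this class difference depended on the scaling. With loess offsets 16.2% of start-site regions rose and 11.7% fell in proNeu1 against cMoP. In proNeu2 against cMoP these shares were 25.2% and 18.8%, and 3 of the 7 regions rose and 0 fell in each proNeu group under that scaling. In GMP-MoP against proNeu1 9.95% of the class fell and 7.45% rose, and against proNeu2 20.4% fell and 15.8% rose, beside 4 of the 7 that fell and 0 that rose in each. Total-count scaling moved the median of all regions by -0.10 and -0.13 (log2) in proNeu1 and proNeu2 against cMoP, and by 0.13 and 0.15 in GMP-MoP against proNeu1 and proNeu2, and no call at the 7 genes changed direction.

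Elsewhere in the pathway, a region in the body of Stat2, another STAT gene, had 15.3 ± 3.41 CPM in proNeu1 and 3.73 ± 0.0482 in cMoP (mean ± SD, n = 2, as below; log2 2.01, adjusted p = 2.97e-05 by edgeR). In GMP-MoP it had 6.91 ± 2.55 CPM, which did not pass against cMoP (adjusted p = 0.395). In the body of Stat4, GMP-MoP had 5.78 ± 3.05 CPM where cMoP had 2.67 ± 0.788, which did not pass either (adjusted p = 0.255).

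The Janus kinase genes Jak1, Jak2, Jak3 and Tyk2 had 2 regions that rose and 3 that fell, of 18, in proNeu1 against cMoP, 27.8% called beside 42.4% of all regions. Regions in the bodies of Jak1 (7.98 ± 0.734 against 47.1 ± 8.05 CPM, adjusted p = 3.66e-15) and Tyk2 (5.92 ± 1.65 against 28.2 ± 1.87, adjusted p = 6.16e-09) fell most firmly. In GMP-MoP the same Jak1 region had 31.1 ± 0.884 CPM (adjusted p = 0.0631 against cMoP), while another in Jak1 was higher than in cMoP (6.15 ± 2.53 and 1.33 ± 0.394, adjusted p = 0.0237).

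The other SOCS genes, Socs4 to Socs7, had 3 regions that rose and 8 that fell, of 19, in proNeu1 against cMoP (57.9% called, 42.4% of all regions), and 0 and 3 in GMP-MoP against cMoP (15.8% and 5.45%). A region 39916 bp from Socs6 had 59.2 ± 9.80 CPM in cMoP and 3.45 ± 0.874 in proNeu1 (log2 -4.06, adjusted p = 7.61e-26). A second, 26278 bp away, had 37.0 ± 5.17 in cMoP, 5.16 ± 2.29 in proNeu1 (adjusted p = 1.15e-13) and 19.5 ± 2.91 in GMP-MoP (adjusted p = 0.00870). A region 38392 bp from Socs5 fell in GMP-MoP against cMoP (2.38 ± 1.77 and 11.7 ± 2.41, adjusted p = 0.00188).

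Genes of other dampers of the pathway, the PIAS, phosphatase and adaptor genes, had 13 regions that rose and 6 that fell, of 35, in proNeu1 against cMoP (54.3% called, 42.4% of all regions). In GMP-MoP against cMoP 2 fell, 5.71% beside a background of 5.45%. Those 2 lay in Cbl, an adaptor that marks receptors for degradation (9.21 ± 3.41 and 22.9 ± 7.99 CPM, adjusted p = 0.00307; 2.77 ± 0.0848 in proNeu1), and in Ptpn6, the gene of the phosphatase SHP-1 (15.4 ± 1.79 and 27.7 ± 7.93, adjusted p = 0.0395; 6.22 ± 0.790 in proNeu1). Both also fell in proNeu1 against cMoP (adjusted p = 9.10e-10 and 2.91e-08).

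STAT-responsive genes had 10 regions that rose and 8 that fell, of 41, in proNeu1 against cMoP, a share of 43.9% near the 42.4% of all regions. The start-site region of Pim1, a kinase gene induced by STATs, had 98.02 ± 1.41 CPM against 49.3 ± 4.03 (log2 0.99, adjusted p = 5.63e-08), and a region 9155 bp from Myc had 1.37 ± 0.938 against 15.96 ± 3.56 (adjusted p = 2.82e-08). A region called in proNeu2 against proNeu1 overlaps Ccnd2, a cyclin D gene (12.97 ± 1.44 and 32.6 ± 0.997 CPM, log2 -1.32, adjusted p = 0.0171). In GMP-MoP against cMoP 2 of the 41 were lower and 0 higher, 4.88% beside 5.45% of all regions. Both lay upstream of Bcl6. The one 4170 bp away had 9.41 ± 2.09 and 19.4 ± 5.40 CPM (adjusted p = 0.0352). The one 38446 bp away had 1 count in GMP-MoP and 26 in cMoP (log2 -4.14, SE 0.985, adjusted p = 0.00263). No counting interval was computed for it.

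Receptors that signal through Janus kinases had 19 regions that rose and 16 that fell, of 72, in proNeu1 against cMoP (48.6% called, 42.4% of all regions). The leading ones were lower and lay 23380 bp upstream (27.9 ± 11.4 and 68.95 ± 4.01 CPM, adjusted p = 1.15e-08) and 3274 bp downstream (2.74 ± 1.88 and 17.8 ± 0.146, adjusted p = 2.88e-07) of Il6st, the gene of gp130. In GMP-MoP against cMoP 1 region was higher, in the body of Ifngr1 with 21 against 2 counts (log2 3.47, SE 0.811, adjusted p = 0.00216; no counting interval was computed), and 2 were lower, among them 1 near Il4ra (11.3 ± 5.69 and 24.5 ± 6.46, adjusted p = 0.0141). Together they were 4.17% of the 72, beside 5.45% of all regions. In proNeu2 against proNeu1 the other regions of lowest adjusted p reported here, linked to Tyk2, Jak2, Socs5, Socs6, Ptpn11, Ptpn1, Bcl6, Lifr and Csf2rb, did not pass, with adjusted p-values from 0.0816 at the start of Lifr to 0.558 in the body of Jak2. The stability of these pathway calls under other settings was not tested call by call. Over all regions DESeq2 called 33 higher and 4 lower in GMP-MoP against cMoP. At most 4 of the falls given above in that comparison can therefore have passed with it.

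The profiles most like those of the members were sought among 13584 regions of other genes with a mean of at least 20 CPM, by Pearson's r of log2 CPM over the 8 libraries. For the Stat3 start-site region the closest were regions in Parp16, Pknox1 and Pwwp3a (r = 0.999 each), and for the region past the end of Cish those near Trim6 (r = 0.995) and in Csad and Kat6a (r = 0.994 each). The Pknox1 region had 103 ± 11.1 CPM in cMoP, 111 ± 24.2 in GMP-MoP, 187 ± 6.04 in proNeu1 and 206 ± 11.01 in proNeu2. Pearson's r describes the shape of a profile and not the size of its change. Mean CPM in cMoP and proNeu2 was 1.07 and 18.5 at the Cish region. It was 13.1 and 31.0 at that of Trim6, 58.4 and 111 at that of Csad and 81.0 and 121 at that of Kat6a. The libraries, their depth and the share of counts at start sites are common to all these regions.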

How the data were processed

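Per the submitters' processing notes, the authors used Bowtie2 2.3.5.1, HOMER 4.11, edgeR 3.32.1 and mm10, with no role or order given; the sources used here give no Tn5 shift, read filter, region caller or counter. The deposited values are whole-number read counts over 61196 regions common to the 8 libraries, taken as raw counts; totals cover these regions only. Regions were linked to the nearest RefSeq protein-coding gene interval within 50 kb (53906 regions). The test was edgeR 4.0.16 under R 4.3.3, with filterByExpr at a minimum count of 10, TMM, 1 mean per group over all 8 libraries, robust quasi-likelihood F tests, Benjamini-Hochberg adjustment over 47506 regions, calls at an adjusted p under 0.05. SE is the log2 change over the square root of F, and 95% intervals use the fit's degrees of freedom. The filter, which acts on levels in any group, kept 26 of the 30 regions. DESeq2 1.42.0 (no independent filtering), other scalings, no filter, other fits, other links and leaving out each library were the alternatives. The code was tested on simulated data. Every region of the 7 genes is reported; pathway regions named are the 2 of lowest adjusted p per list in GMP-MoP against cMoP, proNeu1 against cMoP and proNeu2 against proNeu1. One gene of the pathway lists and the counts over its list are not reported here. Members and lists were chosen with earlier results of these data known.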

Additional observations from a re-analysis of the deposited data

How the results depend on the processing

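Of the 45 calls at the 7 genes, 20 were kept in every alternative run for them, 21 with DESeq2, 24 were lost when at least 1 library was left out, and 0 reversed. DESeq2 called 0, 1 and 4 of the 26 regions in GMP-MoP against cMoP, proNeu1 and proNeu2. Over all regions it called 37, 2135 and 7133 there, against 2590, 11428 and 18609 with edgeR. In proNeu1 against cMoP it called 9242 (edgeR 20162), in proNeu2 against cMoP 14505 (25009) and in proNeu2 against proNeu1 1 (36). The last count was 72 with loess offsets and 16 with the proNeu2 libraries summed to 1 sample, a setting chosen after seeing the data; the cause was not tested. Leaving out 1 library at a time gave 0 to 1, 2 to 10 and 6 to 12 calls at the 7 genes in GMP-MoP against cMoP, proNeu1 and proNeu2. It gave 8 to 11 and 9 to 14 in proNeu1 and proNeu2 against cMoP, and 0 in proNeu2 against proNeu1. Over all regions the ranges were 816 to 2665, 4749 to 11368, 10847 to 19541, 15223 to 22133, 20517 to 27508 and 0 to 38. A group left with 1 library was assumed to vary like the others.

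Deviations of same-numbered libraries correlated at -0.011 to 0.0793. Differences between the 2 libraries of a group were near counting noise (chi-square per degree of freedom 1.05 to 1.21 over all regions). The correlations therefore cannot tell whether same-numbered samples were paired. With the replicate number as a block, calls at the 7 genes were 1, 10, 11, 10, 12 and 0 in the same order, and over all regions 2736, 11734, 18763, 20468, 25275 and 40. The block ended 1 call, the Socs2 region 11.5 kb from the gene in GMP-MoP against proNeu2 (adjusted p = 0.0596). With 11 to 18 counts in the median region, a region that passed in no comparison is not shown to be equal between groups.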
